A study of Bos taurus with 72 samples.

Results

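The 100 genes described here were those with the highest level in complete medium relative to every other medium of a culture experiment on bovine mammary epithelial cells (BMECs). They were drawn from a table of 29550 rows, of which 27570 carried Ensembl bovine gene identifiers and 8643 of those had a mean FPKM of at least 5 over the 72 libraries. FPKM is the number of fragments on a gene divided by its length and by a scaling factor of the library. For each of the 8643 rows, the median of log2(FPKM + 1) over the 6 libraries of each treatment was taken. The score of a row was the median of complete medium minus the highest median of the other 11 treatments, and the 100 highest scores were kept after 3 identifiers set aside by the rule had been left out. The place of a gene below is its position in the order of these scores, with place 1 the highest. The genes were thus selected on the measured level in complete medium, so that level and any count made from it are a description and support nothing.

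Primary BMECs at 6 passages were grown from mammary tissue of healthy dairy cows, starved of serum overnight and then kept in treatment medium for 6 h, all of 1 genotype labelled WT. POS was complete DMEM-F12, NEG was DMEM-F12 without any essential amino acid (EAA), and the other 10 treatments were NEG with 1 EAA restored to its POS concentration, namely Arg, His, Ile, Leu, Lys, Met, Phe, Thr, Trp or Val. Each treatment had 6 libraries of polyadenylated RNA, named here by treatment and replicate number (NEG_2 is replicate 2 of NEG). The paper calls the replicates biological, but no label ties them to separate cows or cultures, so the p-values measure only the spread between these libraries. The labels and the paper differ on the library kit and on the culture plate, and each was shared by all 72 libraries.

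Mammary epithelial cells take up EAA from the blood to build milk proteins, and they also read EAA as signals. Amino acids entering the cell activate the kinase complex mTORC1, which promotes translation and growth, while transfer RNAs left uncharged activate the kinase GCN2, which slows translation and raises the transcription factor ATF4 and its target genes. Absence of any single EAA is enough to leave a transfer RNA uncharged, and leucine and arginine have sensors of their own upstream of mTORC1. The table gives no gene symbols, none of its identifiers was found in the reference table of bovine genes, and no genome was used here. The functions of the 100 genes, their positions and the level of epithelial or fibroblast markers are therefore not given, and at most 4 identifiers are named.

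Reads on genes, recovered as whole numbers from the FPKM, ranged from 12006023 in Leu_1 to 18602422 in Thr_2, with a median of 15865504.5 per library. In Leu_1, Arg_4 and POS_4 the mean log2(FPKM + 1) of the 8643 scored rows was 3.85, 4.11 and 4.15, the lowest of their treatments. Only 10495, 11838 and 13537 genes were above 0 in them, fewer than in any other library. The paper also lists a lower mapping efficiency for Arg_4 and Leu_1 than for every other library. High values of single genes in these libraries may thus not reflect their treatment, which was not tested. Of the 100 genes, 11 were listed at 0 in Leu_1, 7 in Arg_4, 2 in POS_4 and 1 in NEG_2, while 88 were above 0 in every library. Several results that rest on these 4 libraries are given with and without them, a choice made after the data were seen. How far each gene moved towards POS with 1 EAA, and which treatment was next highest, are given with all libraries only.

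The 100 genes were expressed in every treatment and were at a higher level in POS, rather than being present in POS alone. This is a description only, since the filter on the mean over all libraries favours genes expressed outside POS. In 11 genes the NEG median FPKM was under 5, and for such genes the POS level could help to pass the filter. Their median FPKM ran from 2.06 to 449 in NEG (median over the genes 14.3) and from 10.7 to 1709 in POS (median 29.4). In POS, 17 genes had a median FPKM of at least 100 and 32 of at least 50. The ratio of the POS median to the NEG median lay between 1.61 and 11, with a median of 2.30. It was at least 2 in 71 genes, at least 3 in 22 and at least 4 in 6. Scores ran from 0.65 to 1.73 on the log2 scale with a median of 0.86, and 30 genes scored at least 1. Among all scored rows, 1522 (17.6%) had a score above 0, so a POS median above the other 11 was not rare and the 100 genes are the upper end of a continuous range. At the border, places 98, 99 and 100 had scores of 0.6574, 0.6545 and 0.6543, and the next 3 rows outside had 0.6534, 0.6520 and 0.6506. Of the 3 identifiers left out, 1 would have had the highest score, 1.82, 1 the sixth highest, 1.53, and 1 would have been outside the 100 in any case, with 0.61.

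**Figure D1:**
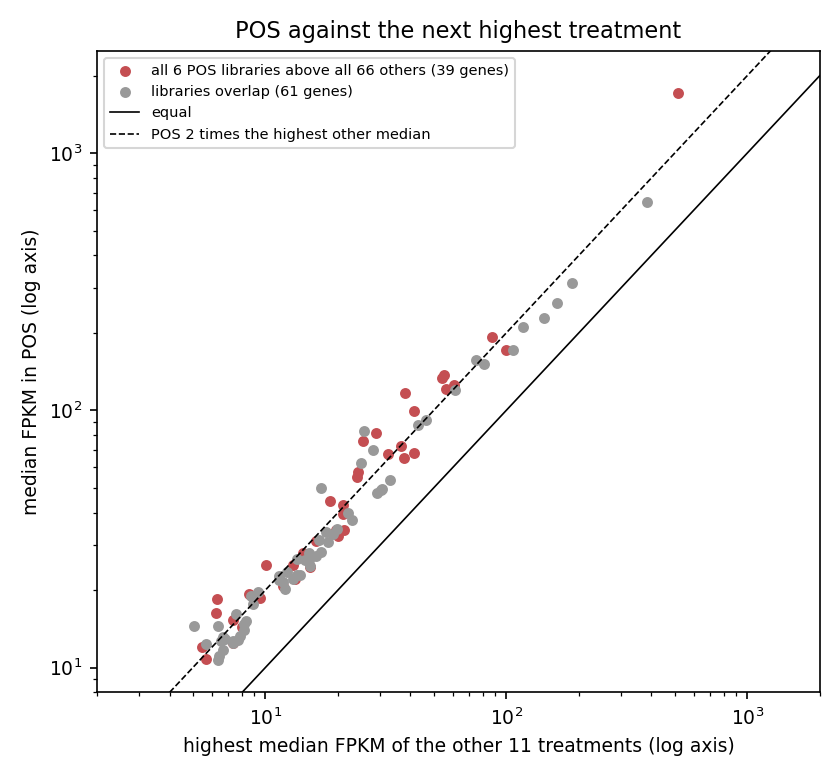
Median FPKM in POS (vertical, log axis) against the highest median FPKM of the other 11 treatments (horizontal, log axis), 1 point for each of the 100 genes. The points lie above the line of equality, as the rule required, and the 39 genes in red had all 6 POS libraries above all 66 others, across the whole range of levels.

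Single libraries separated less cleanly than medians. All 6 POS libraries were above all 66 other libraries in 39 of the 100 genes, against 1.08% of the 8643 scored rows, and all 6 were above the 6 NEG libraries in 77, against 9.29%. These contrasts were the ones the rule used, and the counts are a description only. The lowest POS library was POS_4 in 42 genes, POS_1 in 33 and POS_6 in 13. Each POS library alone exceeded all 66 others in 61 (POS_6) to 72 (POS_2) of the genes. In the 61 genes whose libraries overlapped, the highest library outside POS belonged to Arg in 23, to Leu in 16 and to NEG in 8. Arg_4 was the highest of the 66 in 26 of the 100 genes and Leu_1 in 20. Without POS_4 alone the count of non-overlapping genes was 56, against 2.37% of the scored rows. Without NEG_2, Arg_4, Leu_1 and POS_4, the 5 POS libraries were above the other 63 in 91 of the 100 genes, against 3.81% of the scored rows. These libraries made much of the overlap, so leaving them out was bound to raise the count.

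Summed over the genes, the difference was present in each POS library. The mean log2(FPKM + 1) of the 100 genes was 5.15 to 5.39 in POS (median 5.29) and 3.97 to 4.11 in NEG (median 4.09). The 10 single-EAA treatments had medians from 3.90 in Val to 4.14 in Arg, and their highest library, at 4.19, was in Arg. The lowest POS library was thus above the highest of all other libraries. The 100 genes took 2.23% to 2.60% of the reads on genes in POS (median 2.41%) and 0.757% to 0.935% in NEG (median 0.902%). Without the gene at place 1 these shares were 1.85% to 2.23% in POS and 0.643% to 0.835% in NEG. Among the single-EAA libraries, the share was highest in Arg_4 (1.45%) and Leu_1 (1.17%), and below 1% in the others. In Arg_4 and Leu_1 the mean level of the 100 genes, 4.07 and 3.72, was the lowest of their treatments. A share of reads is relative to the reads on all other genes. A larger share can reflect more RNA of these genes per cell, less RNA of other genes or a change in the number of cells. These cannot be told apart in bulk libraries.

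**Figure D2:**
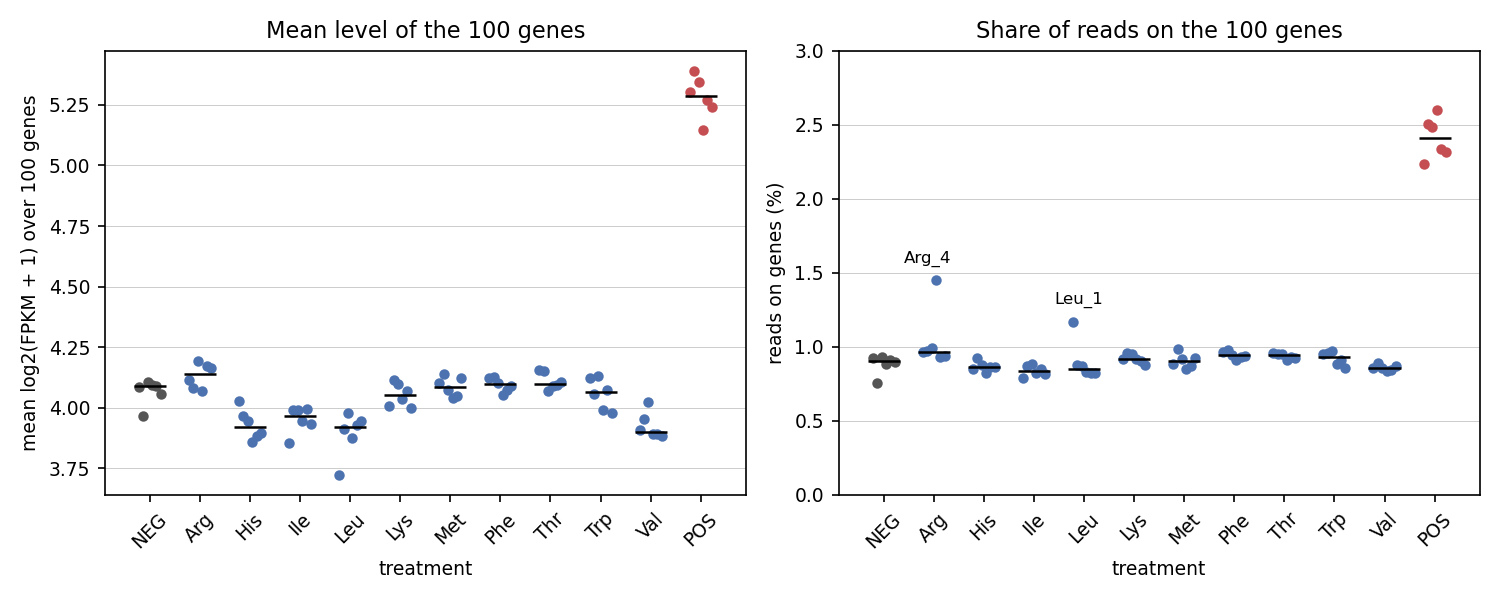
Mean log2(FPKM + 1) of the 100 genes (left) and percent of the reads on genes that fell on them (right) in each of the 72 libraries, by treatment, with bars at the treatment median. The 6 POS libraries lie above all 66 others in both panels, while Arg_4 and Leu_1 are the highest of the others by share of reads but not by mean level.

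In median length and depth the 100 genes were near the scored rows, but very short genes made up a larger share of them. Their recovered length had a median of 2760 bp (range 73 to 9860), against 2387 bp for the scored rows, and their median number of reads per library had a median of 563, against 695.5. Of the 100 genes, 8 were shorter than 250 bp, as were 1.82% of the scored rows. These short genes rested on few reads, with medians between 8 and 104 per library, and 7 of the 8 were at 0 in some library. Only 1 of the 8 had all POS libraries above the 66 others. Within a treatment, the median SD of the genes on the log2 scale was 0.15 in NEG and 0.10 in Phe, and it was wider in POS (0.33), Arg (0.32) and Leu (0.41). Over the scored rows it was 0.20 in NEG, 0.09 in Phe, 0.40 in POS, 0.36 in Arg and 0.40 in Leu, so the treatments differed likewise in all rows. Without POS_4 the SD of the 100 genes was 0.20 in POS. The score was more than 3 times the largest within-treatment SD in 19 genes.

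By rule, the 2 genes with the highest scores are given by identifier, together with the 2 that had the most negative fold change against NEG among genes past the adjusted p in a single-EAA treatment. ENSBTAG00000013162, at place 1 with a length of 2317 bp and a median of 16189.5 reads per library, was also the most highly expressed of the 100. Its FPKM was 1685 in POS_1, 1627 in POS_2, 1754 in POS_3, 1555 in POS_4, 1733 in POS_5 and 1771 in POS_6. In NEG it was 453 in NEG_1, 578 in NEG_2, 445 in NEG_3, 434 in NEG_4, 435 in NEG_5 and 459 in NEG_6. The ranges of POS and NEG were far apart, the ratio of medians was 3.81, and NEG_2 stood above the other NEG libraries. In the 10 single-EAA treatments the medians lay between 368 (Met) and 515 (Ile), and the highest library was Ile_1, at 734. Met (lowest 322, median 368, highest 412) was below NEG (log2 fold change −0.36 with a standard error, SE, of 0.10, and adjusted p = 0.0095 by limma with Benjamini-Hochberg adjustment), and its 6 libraries were all below the lowest NEG library. Trp (lowest 370, median 388, highest 419) was below NEG by −0.25 (SE 0.091, adjusted p = 0.039 by limma), also without overlap. The other 8 single-EAA treatments did not pass the test for this gene. Without NEG_2, which was high for it, Thr and Phe were lower as well (log2 fold changes −0.25 and −0.12, adjusted p = 0.003 and 0.024 by limma). His and Ile were then higher (0.16 and 0.29, adjusted p = 0.024 and 0.032 by limma).

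ENSBTAG00000013303, at place 2 with 2972 bp, had an FPKM of 87.7, 84.5, 81.1, 115, 65.3 and 66.3 in POS_1 to POS_6. In NEG it had 19.4, 20.5, 17.7, 16.1, 17.3 and 15.1 in NEG_1 to NEG_6. The ratio of the POS median to the NEG median was 4.73 and the 2 ranges did not overlap. Arg was the next highest treatment, with 25.5, 29.9, 25.6, 69.7, 24.5 and 21.8 in Arg_1 to Arg_6. Each Arg library was above each NEG library, but Arg_4 stood far above its replicates and inside the range of POS, and the log2 fold change of 0.74 (SE 0.23) did not pass the test (adjusted p = 0.069 by limma). Without Arg_4 and NEG_2 it was 0.54 (SE 0.091) and passed (adjusted p = 0.0026 by limma). Ile (lowest 9.92, median 11.5, highest 14.2) fell below every NEG library, with a log2 fold change of −0.55 (SE 0.098, adjusted p = 0.0015 by limma). His and Val were lower too, with log2 fold changes of −0.28 and −0.27 (adjusted p = 0.027 and 0.031 by limma).

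ENSBTAG00000012059, at place 12 with 1789 bp, was high in POS and low in most single-EAA treatments. Its FPKM was 121, 100.4, 83.3, 22, 57.3 and 54.5 in POS_1 to POS_6. In NEG it was 27.4, 37.6, 29.8, 25.2, 28.6 and 23.7 in NEG_1 to NEG_6. POS_4 was thus below all 6 NEG libraries, while the other 5 POS libraries were above them. The lowest value was in Leu, with 0 in Leu_1 and 11.1 to 15.8 in the other 5 libraries, a log2 fold change of −1.61 against NEG (SE 0.60, adjusted p = 0.042 by limma). Without Leu_1 and NEG_2 it was −0.88 (SE 0.093, adjusted p = 4.2e-06 by limma). His, Ile, Lys, Met, Trp and Val were lower as well, with log2 fold changes from −0.55 (Lys) to −0.94 (Val). In Val, the libraries other than Val_3 had 11.6 to 13.8 and Val_3 had 28.1, the level of NEG. Arg, Phe and Thr did not pass the test, with fold changes of −0.24, −0.06 and −0.12 and medians of 25.2, 26.3 and 26.7 beside 28.0 in NEG.

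ENSBTAG00000002391, at place 82 with 3199 bp, was also lower than NEG in most single-EAA treatments. Its FPKM was 25.4, 28.7, 26.4, 7.04, 18.6 and 16.1 in POS_1 to POS_6, and 13.1, 14.8, 11.9, 12.3, 11.9 and 14.3 in NEG_1 to NEG_6. POS_4 was again below NEG and the other 5 above it. Leu (0 in Leu_1 and 4.68 to 6.18 in the other 5) was lower than NEG, with no overlap and a log2 fold change of −1.61 (SE 0.41, adjusted p = 0.0078 by limma). Without Leu_1 and NEG_2 it was −1.13 (SE 0.077, adjusted p = 2.2e-07 by limma). The log2 fold change was −0.99 in Val and −0.89 in Ile (adjusted p = 0.00041 and 0.0052 by limma), −0.67 in both His and Met, and −0.45 in Trp, each past the test. Lys did not pass the test (log2 fold change −0.24, adjusted p = 0.093 by limma), and neither did Arg, Phe or Thr, where the Thr median was 13.0 beside 12.7 in NEG.

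**Figure D3:**
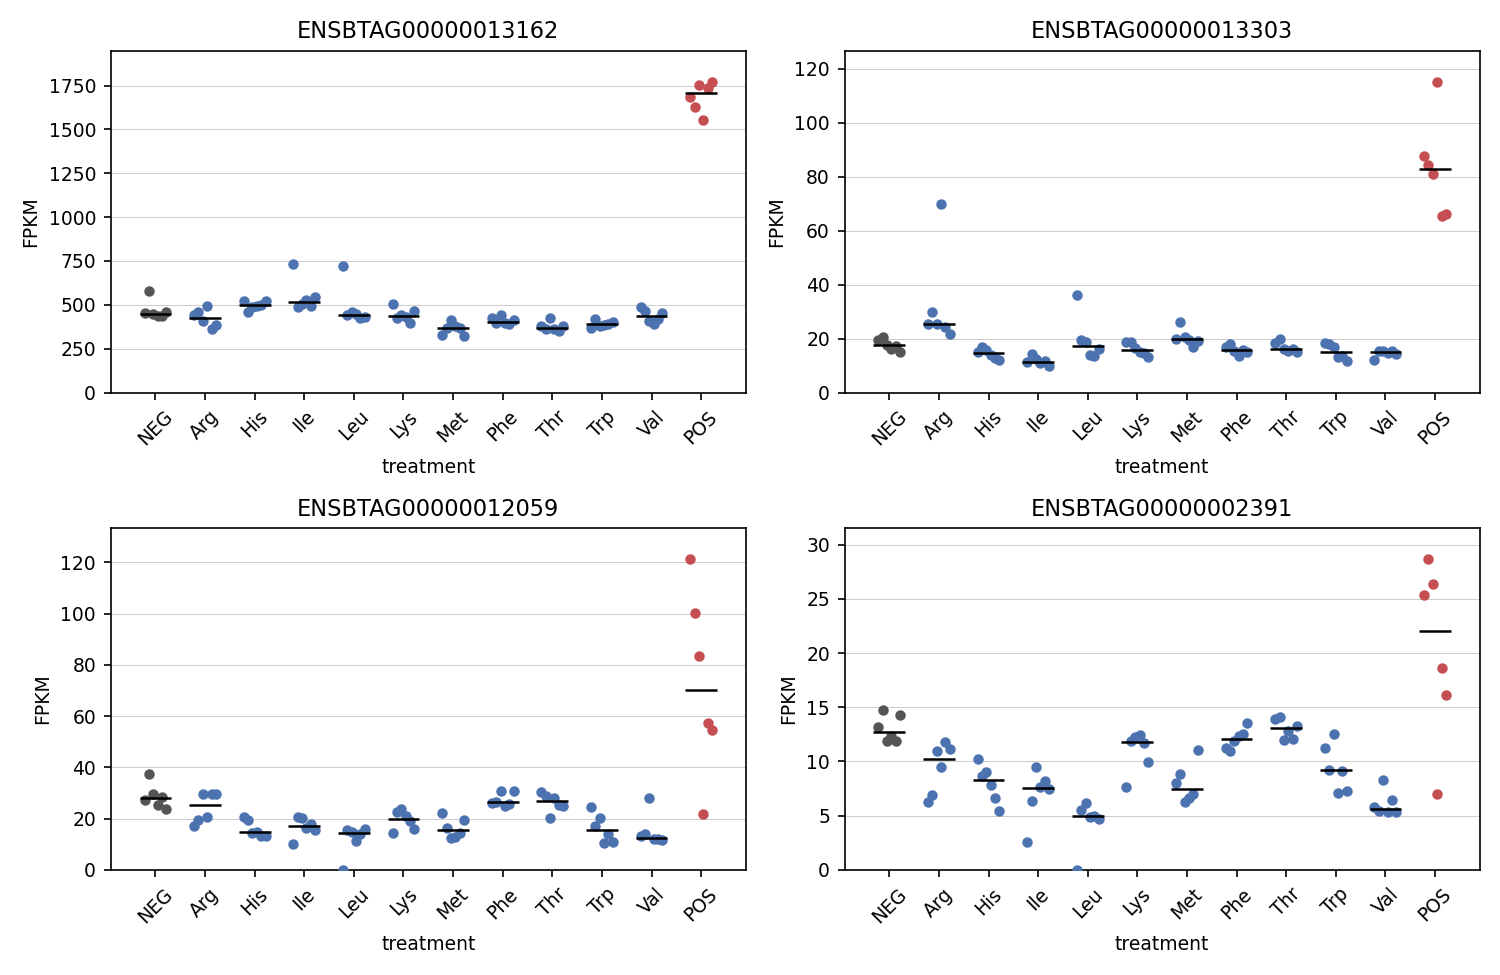
FPKM of the 4 named genes in each of the 72 libraries by treatment, on linear axes from 0, with bars at the treatment median. The 2 upper genes have all POS libraries above all NEG libraries, and Arg_4 reaches into the POS range of ENSBTAG00000013303. In the 2 lower genes POS_4 lies below NEG and the medians of Leu, Val, His, Ile, Met and Trp are below that of NEG.

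How far each gene moved from NEG towards POS with 1 EAA was described as a share. For each gene and treatment the difference from the NEG median was divided by the POS minus NEG difference, both on log2(FPKM + 1). The largest of the 10 shares of a gene had a median of 19.6% over the 100 genes and ran from −14.7% to 68.1%. It was past 25% in 43 genes and past 50% in 3. In 14 genes every single-EAA median was below that of NEG. A high score requires a POS median far above every single-EAA median, so the rule kept out genes that 1 EAA brought near POS and the largest share is tied to the score. These shares are therefore a description only. By treatment and with the deposited scaling, the median share was 3.34% in Arg, 1.89% in Thr, −0.34% in Met and −2.08% in Phe. It was lower in Lys (−6.68%), Leu (−9.02%), Trp (−9.04%), His (−11.3%), Ile (−11.4%) and Val (−14.3%). These signs depend on the scaling. With libraries scaled by their total reads on genes, the median log2 fold change of the 100 genes against NEG was above 0 in Lys (0.03), Trp (0.07) and, barely, His (0.001). It stayed below 0 in Ile (−0.04), Leu (−0.02) and Val (−0.02). Added up, the 10 single differences from NEG in FPKM came to a median of −30.1% of the POS minus NEG difference. The sum was below 0 in 59 genes and reached the POS minus NEG difference in 19. The sign of this median turned with the scaling, chosen as a check after the data were seen: with libraries scaled by their total reads on genes the median was 3.12%, with 48 genes below 0 and 23 reaching the difference. No medium with between 2 and 9 EAA was included, so whether these genes need several EAA together was not tested.

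The treatment with the highest median outside POS was Arg in 18 genes, Met in 18, Thr in 16, NEG in 14 and Val in 13, and each of the other 6 treatments in at most 6. Over the scored rows this treatment was NEG in 23.9%, Val in 19.5%, Thr in 16.4%, Leu in 12.5%, Met in 7.35% and Arg in 6.31%. Arg and Met were thus the next highest in a larger share of the 100 genes than of all rows, given here without a test because the rule used these medians.

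The genes given by place were singled out after their values were seen. The gene at place 6, with 2547 bp, was highest outside POS in Trp. Its FPKM ran from 67.5 to 124 in POS (median 81.5), from 13.8 to 17.8 in NEG (median 15.8) and from 23.9 to 34.9 in Trp (median 28.9). Every Trp library was above every NEG library and below every POS library, and the log2 fold change of Trp against NEG was 0.84 (SE 0.11, adjusted p = 0.0052 by limma). Its next highest medians, in Phe and Met, were 16.1 and 16, the level of NEG. In His, Ile, Lys and Val the gene was lower than in NEG, with log2 fold changes of −0.61, −0.49, −0.25 and −0.54.

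The 3 genes past 50% were at places 37, 58 and 100, and each was past 50% in more than 1 single-EAA treatment. Places 37 and 58 were 73 and 81 bp long and rested on medians of 9 and 9.5 reads per library. At place 37 the NEG libraries ran from 0 to 14.7 (median 2.06) and the POS libraries from 0, in POS_4, to 36.2 (median 22.6), so the 2 ranges overlapped, while the POS median was above every NEG library. The highest library of all was Leu_1, at 73.6. The gene at place 100 was longer (6709 bp, a median of 557 reads). Its FPKM was 2.11 to 3.92 in NEG (median 3.43), 8.57 to 17.0 in POS (median 10.7) and 4.70 to 18 in Leu (median 6.37), where the value of Leu_1 exceeded every POS library. It was higher than NEG in 7 single-EAA treatments, by 0.39 (Lys) to 1.00 (Leu) on the log2 scale, and without Leu_1 and NEG_2 the value in Leu was 0.67 (SE 0.099).

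Each single-EAA treatment was then tested against NEG with limma over the 12121 genes whose mean FPKM was 1 or more, at a Benjamini-Hochberg adjusted p under 0.05, and the calls among the 100 genes were counted. All 100 genes were among the 12121. The 10 comparisons share the 6 NEG libraries. The rule placed the POS median above each single-EAA median, which bounds how far a gene could rise but not whether it could fall. The same calls for POS, 93 of the 100 genes higher than in NEG and 0 lower where 14.3% and 18.5% of all genes were called, were set in advance by the choice of genes on this contrast, and nothing is read from them.

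In Val, the treatment with the most calls, 18 of the 100 genes were higher and 43 lower than in NEG, beside 25.3% and 36.2% of all genes. In His, 13 were higher and 37 lower (all genes 23.4% and 34.4%), and in Ile 5 and 28 (15.8% and 25.1%). Leu had 8 higher and 27 lower (20.7% and 29.6%), and without Leu_1 it had 16 and 36 (25.9% and 37.3%). Without NEG_2 the counts in Ile were 9 and 32 (20.1% and 28.2%). In these 4 treatments rises were fewer among the 100 genes than among all genes, on the side that the rule bounds. Falls were near the share of all genes in His, Ile and Leu and above it in Val. With libraries scaled by their total reads on genes, falls were 31 beside 29.5% in Val and 19 beside 19.5% in Ile.

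Trp had 13 higher and 21 lower (15% and 27.5%), and without Trp_4 it had 10 and 9 (9.29% and 21.4%). Lys had 11 and 18 (13.9% and 25.8%). Met had about as many rises as falls, 21 higher and 20 lower, beside 17.7% and 29.9% of all genes. Arg had 2 higher and 2 lower (2.29% and 4.35%), and Phe had 6 and 4 (4.23% and 7.97%). In Thr, limma called 0 of the 100 genes, beside 0.033% of all genes higher and 0% lower, while at an unadjusted p under 0.05 the gene count was 16 higher and 12 lower, beside 13.6% and 20.8% of all genes. Voom on the recovered reads also called 0 in Thr. The study's rule was an unadjusted p below 0.05 together with a fold change of more than 1 in either direction on the log2 scale. Its thresholds were applied here to the limma results, whereas the paper used them with DESeq. The calls among the 100 genes were then 1 in Arg, 3 in His, 1 in Ile and 7 in Leu, where 3.15%, 4.59%, 1.58% and 16.9% of all genes were called. They were 0 in Lys, 3 in Met, 1 in Phe, 1 in Thr, 1 in Trp and 3 in Val, where the shares of all genes were 1.66%, 3.78%, 0.38%, 0.512%, 3.09% and 11.8%. Leaving out NEG_2 alone gave 9 higher and 8 lower in Thr (9.26% and 12.2% of all genes) and 13 and 11 in Phe (13.4% and 20.6%). Leaving out Arg_4 alone gave 13 higher and 5 lower in Arg (6.44% and 10.7%), where the rises were then above the share of all genes.

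The balance of rises and falls moved with the scaling of the libraries. When the libraries were scaled by their total reads on genes, the median of all genes shifted upwards against NEG by 0.05 (Thr) to 0.13 (Val) on the log2 scale. The counts of higher and lower genes among the 100 were then 25 and 31 in Val (32.5% and 29.5% of all genes), 22 and 30 in His (29.6% and 29.3%), 10 and 19 in Ile (20.5% and 19.5%) and 9 and 22 in Leu (24.7% and 24%). They were 21 and 10 in Trp (21.7% and 21.3%), 13 and 11 in Lys (17.9% and 20.9%) and 25 and 14 in Met (21.5% and 25.6%). In Arg they were 8 and 1 (5.17% and 2.93%), in Phe 6 and 2 (4.48% and 6.68%) and in Thr 0 and 0 (0.0495% and 0.00825%). The balance of all genes moved in the same direction. Relative to the median of all genes, the median fold change of the 100 genes was 0.13 in Arg and 0.08 in Met with the deposited scaling and 0.14 and 0.09 with total reads, and it lay between −0.07 and 0.07 in the other 8 with both scalings. These values moved when single libraries were left out. In Arg the value ran from 0.07 (without Arg_4) to 0.17 (without Arg_6), and in Met from 0.05 (without Met_1) to 0.09 (without Met_5). The other 8 moved as well, to 0.09 in Leu and −0.09 in Val without NEG_2. Arg and Met were thus not apart from the other 8 under every choice of libraries.

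**Figure D4:**
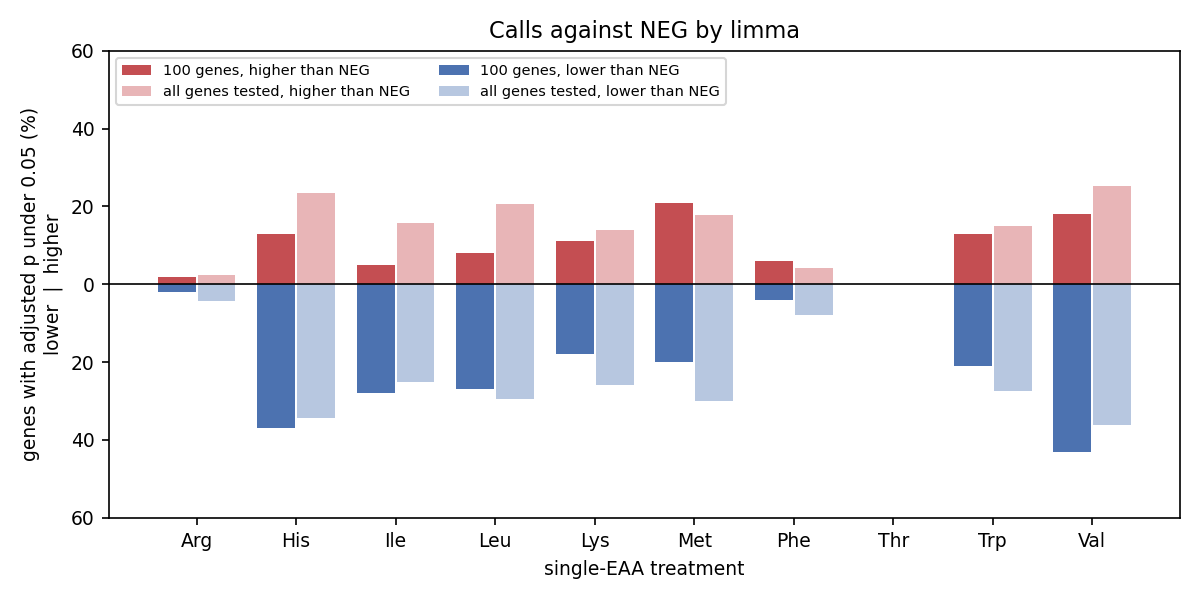
Percent of the 100 genes (dark) and of all 12121 genes tested (light) called higher (upwards) or lower (downwards) than NEG in each single-EAA treatment, at an adjusted p under 0.05 by limma with the deposited scaling. With all libraries, rises of the 100 genes exceed the background share only in Met and Phe. Without Arg_4 they do so also in Arg, while in Phe they do not without NEG_2 (13 genes beside 13.4%) or where leaving out NEG_1, NEG_5, Phe_1, Phe_2, Phe_4 or Phe_5 gives 0 calls. Falls lie above it in Val and slightly above it in His and Ile, while no gene of the 100 was called in Thr. With total-read scaling the falls were near the share of all genes, 31 beside 29.5% in Val, 30 beside 29.3% in His and 19 beside 19.5% in Ile.

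The 100 genes were also sorted by their calls over the 10 treatments. Of the 100, 50 were lower than NEG in at least 1 treatment and higher in none, 27 were higher in at least 1 and lower in none, 5 were both and 18 passed in no treatment. Among all genes tested the corresponding shares were 45.6%, 34.4%, 2.5% and 17.5%, so the split of the 100 genes was near that of all genes. In 5 or more treatments, 19 genes were lower (all genes 25.6%) and 8 were higher (14%). With total-read scaling the classes held 41, 39, 6 and 14 genes (39.5%, 40.7%, 2.59% and 17.1% of all genes). Without NEG_2, Arg_4, Leu_1 and POS_4 they held 44, 28, 22 and 6 genes (44.8%, 33.0%, 16.1% and 6.15%). Of the 50 genes lower in some treatment, 38 were in the same class without the 4 libraries, 11 were both and 1 passed in no treatment. Of the 27 higher genes, 22 were in the same class and 5 were both, and none changed from lower alone to higher alone or the reverse.

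The 50 lower genes were called in Val (41), His (34), Ile (27), Leu (27), Trp (21), Met (18), Lys (17), Phe (3) and Arg (2). Of the 5527 genes in this class among all genes tested, 77.6% were called in Val, 73.6% in His, 54.2% in Ile, 63.6% in Leu, 60% in Trp, 64% in Met, 56% in Lys, 16.2% in Phe and 8.65% in Arg. Their median NEG FPKM was 18.2 and their median POS to NEG ratio 2.04, and 21 had all POS libraries above the 66 others. The gene at place 18 was lower than NEG in 7 treatments. Its FPKM was 20.8 to 33.8 in NEG (median 24.1), 41.5 to 106 in POS (median 55.2) and 9.43 to 16.7 in His (median 10.6), with no overlap among the 3 groups. The log2 fold change in His was −1.06 (SE 0.14, adjusted p = 0.00019 by limma). Its median was also low in Met (10.9), Leu (11) and Trp (12.0), and near NEG in Arg (22.2), Thr (21.9) and Phe (20.9). The gene at place 69 had 336 to 403 in NEG (median 364), 349 to 840 in POS (median 648) and 189 to 378 in Val (median 217). POS_4, at 349, was inside the NEG range and the other POS libraries were above it, and Val_3, at 378, was the single Val library inside the NEG range.

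The 27 higher genes were called in Met (19), Val (17), His (12), Lys (11), Trp (11), Leu (7), Ile (5), Phe (4) and Arg (1). Of the 4168 genes in this class among all genes tested, 50.1% were called in Met, 71.8% in Val, 66.5% in His, 39.7% in Lys, 43.4% in Trp, 58.7% in Leu, 44.5% in Ile, 9.91% in Phe and 6.24% in Arg. Their median NEG FPKM was 8.86 and their median POS to NEG ratio 2.72. The difference in this ratio between the classes is no separate result, since a gene raised by 1 EAA needs a higher POS level to reach the same score. All POS libraries exceeded the 66 others in 8 of the 27. The gene at place 84 was higher than NEG in 8 treatments, the most of the 100. Its FPKM was 16.7 to 23.2 in NEG (median 19.95), 51.03 to 88.5 in POS (median 53.6) and 26.9 to 37.0 in Val (median 32.8), with no overlap among the 3 groups. The log2 fold change was 0.69 in Val (SE 0.10, adjusted p = 0.00049 by limma) and 0.79 in Leu (SE 0.18, adjusted p = 0.0046 by limma), where Leu_1 at 63.7 was inside the POS range. Without Leu_1 and NEG_2 the value in Leu was 0.57 (SE 0.068). The gene at place 10 had 32.4 to 39.5 in NEG (median 36.5), 91.4 to 248 in POS (median 133) and medians between 46.0 and 53.9 in Lys, Trp, Leu, His, Met and Val, in each of which it passed the test.

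**Figure D5:**
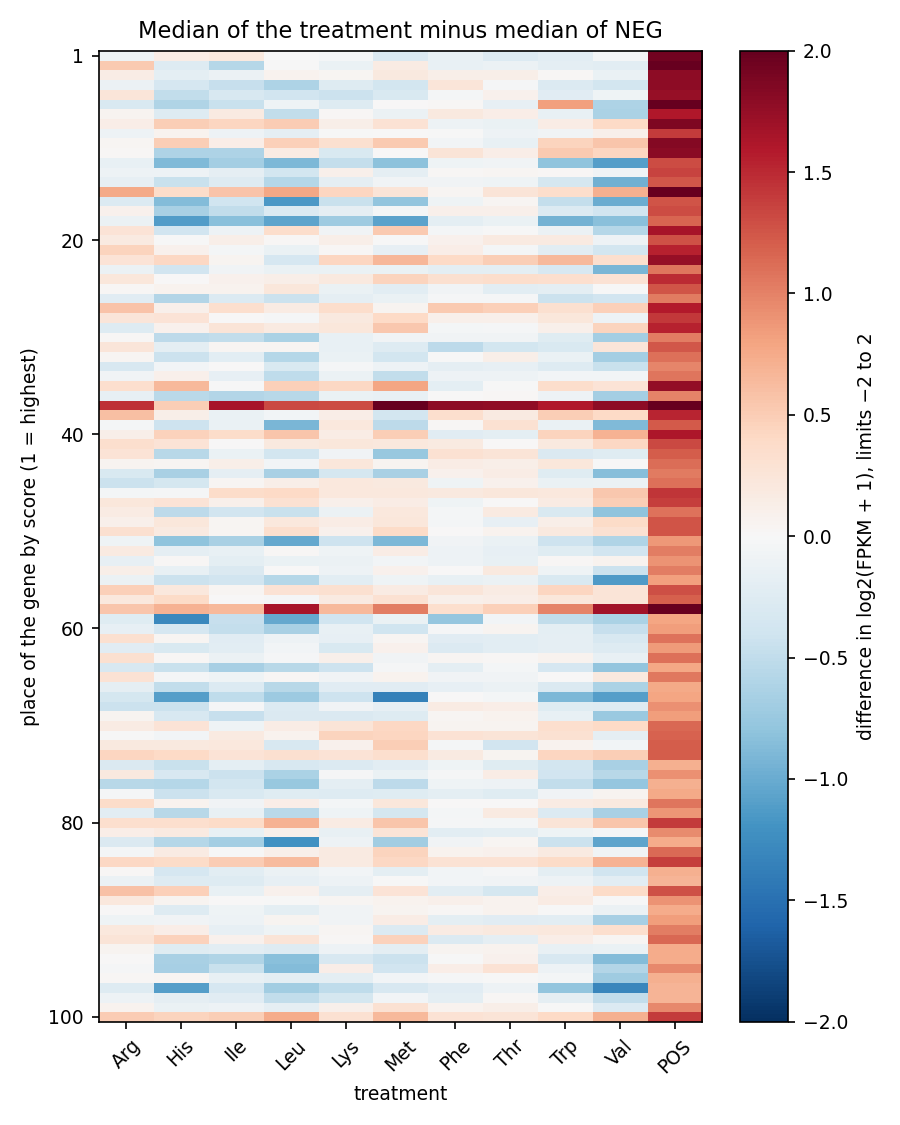
Difference of the treatment median from the NEG median on log2(FPKM + 1) for the 100 genes (rows, place 1 at the top) in the 10 single-EAA treatments and POS (columns), with the color limited at −2 and 2. The POS column is red throughout, as the rule required, while rows that are blue or red across His, Leu, Met, Trp and Val alternate down the list and the columns of Phe and Thr are mostly pale, with the short gene at place 37 as an exception in both.

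Single libraries differed between the classes over the whole table, and the 100 genes followed it. POS_4 was the lowest of the 6 POS libraries in 35 of the 50 lower genes and the highest in 21 of the 27 higher genes, as it was in 77.8% and 74.2% of all genes of these classes. Compared with the median of the other 5 POS libraries, the median difference in POS_4 was −0.57 on the log2 scale in the lower genes and 0.61 in the higher genes (all genes −0.91 and 0.68). The values were −0.65 and 1.00 in Leu_1 (all genes −1.21 and 0.59) and −0.36 and 0.40 in Arg_4 (all genes −0.93 and 0.48). Val_3 lay on the opposite sides, with 0.44 and −0.43 (all genes 0.67 and −0.52). So did POS_1, with 0.265 and −0.345 (all genes 0.47 and −0.34). NEG_2 differed from its replicates by 0.05 in the lower genes and −0.33 in the higher genes (all genes 0.21 and −0.13). The part of these differences between libraries in the calls against NEG was not tested.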

How the data were processed

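RNA-seq of 72 libraries was used, from 12 treatments with 6 replicates each. The authors deposited 1 table of FPKM, whose columns were assigned to libraries by name. The submitters' processing notes list HISAT2 (2.0.5), StringTie (1.3.3b), featureCounts (1.5.0-p3) and DESeq2 (1.20.0), while the paper names Trimmomatic for quality control, the same aligner and assembler, but cufflinks and htseq-count for counts and FPKM and DESeq for testing. The genome build was not given in the sources used here. From the FPKM, whole reads were recovered for all rows above 0 (100.0% of values above 0 came out whole, within 0.001). Where reads were few, a gene's length is known only up to a divisor. The FPKM carry the authors' scaling between libraries and were used as deposited.

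The rule, the members and the lists were chosen with earlier results of these data known. Each treatment was compared with NEG by limma (3.58.1, R 4.3.3) on log2(FPKM + 1), with a prior variance that follows the mean level, over genes whose mean FPKM was 1 or more and with Benjamini-Hochberg adjustment over all of them; such fold changes understate the change of genes with low FPKM. The recovery of reads, the rule and the comparison of Ile with NEG were tested on simulated data, with changes placed in well expressed genes. The simulation held no libraries like Leu_1, Arg_4 or POS_4, so it does not cover what such libraries do to the results. Planned lists of gene symbols and cell type markers were not run, since 0 identifiers matched among the 37063 rows of the reference table. Named genes followed a rule (the 2 highest scores and the 2 most negative called fold changes), and genes given by place were chosen after their values were seen. Alternatives were another pseudocount (0.1), no filter, median-ratio and total-read scaling, voom on recovered reads, 1 fit of all treatments, the replicate number as a block, the study's call rule, and each library left out. Replicate numbers are not said to mark a shared batch. Deviations of same-numbered libraries correlated above 0.1 in every pair only between Trp and NEG (r = 0.102 to 0.244), where the block gave 35 calls in place of 34. PCR copies were not marked, so reads are not independent molecules.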

Additional observations from a re-analysis of the deposited data

Results flagged for a closer look

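In 72 groups of 6 libraries (the mean level of the 100 genes, their share of reads and the FPKM of the 4 named genes in each treatment), the highest and lowest library were set against the rest by Dixon's test, in which the gap to the nearest library is divided by the range of the group and compared with the critical value for 6 samples. In 13 cases the gap was larger. Chance gives about 1 in 20 groups where measures are independent and not chosen by their values. These measures share libraries, and ENSBTAG00000012059 and ENSBTAG00000002391 were named for fold changes to which Leu_1 at 0 contributed, so the 13 cases are not set against chance.

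NEG_2 stood apart by a low mean log2(FPKM + 1) of the 100 genes (3.97, the other NEG libraries 4.06 to 4.11), a low share of reads (0.757%, the others 0.884% to 0.935%) and a high FPKM of ENSBTAG00000013162 (578, the others 434 to 459). Arg_4 had 1.45% of its reads on the 100 genes, where the other Arg libraries had 0.935% to 0.991%, and an FPKM of 69.7 for ENSBTAG00000013303, where the others had 21.8 to 29.9. Leu_1 had 1.17% of its reads on the 100 genes (the others 0.820% to 0.875%). In Leu_1 the FPKM was 719 for ENSBTAG00000013162 (the others 427 to 458), 36.3 for ENSBTAG00000013303 (13.7 to 19.4), and 0 for both ENSBTAG00000012059 (11.1 to 15.8) and ENSBTAG00000002391 (4.68 to 6.18). Ile_1 had 734 for ENSBTAG00000013162, against 488 to 546 in its replicates. Val_3 had 28.1 for ENSBTAG00000012059 (11.6 to 13.8 in the others) and 8.29 for ENSBTAG00000002391 (5.36 to 6.40).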

How the results depend on the processing

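The 100 genes had 4 calls against NEG in Arg, 50 in His, 33 in Ile, 35 in Leu, 29 in Lys, 41 in Met, 10 in Phe, 0 in Thr, 34 in Trp and 61 in Val, and 93 in POS, which the choice of genes set. Each alternative moved these counts by 1.5 times or less unless given here, and the cause of the moves was not tested. The study's call rule gave 1 in Arg, Ile, Phe, Thr and Trp, 3 in His, Met and Val, 7 in Leu and 0 in Lys. With 1 fit of all 12 treatments there were 28 calls in Arg, 55 in Leu, 7 in Lys, 27 in Met, 2 in Phe, 3 in Thr and 20 in Trp, and the shares of all genes moved with them (27.7%, 68.9%, 10.6%, 33.9%, 3.58%, 3.7% and 25.9%). Without the filter there was 1 call in Arg and 4 in Phe (all genes 1.93% and 2.13%), and total-read scaling gave 9 in Arg (8.1%). The replicate block gave 0 calls in Arg and 0 in Phe (0.0578% and 0%), and moved no other count by more than 1.5 times. In the alternative added after the data were seen, leaving out NEG_2, Arg_4, Leu_1 and POS_4 gave 26 in Arg, 60 in Leu, 24 in Phe and 17 in Thr (25.2%, 74.1%, 34% and 21.5%).

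Leaving out 1 library gave 0 to 18 in Arg (all genes 1.01% to 17.1%), 45 to 61 in His (51.7% to 67.4%), 28 to 41 in Ile (32.6% to 48.3%), 28 to 52 in Leu (41.3% to 63.1%), 20 to 35 in Lys (32% to 46.6%), 31 to 49 in Met (38.3% to 54.4%), 0 to 24 in Phe (0.0743% to 34%), 0 to 17 in Thr (0% to 21.5%), 19 to 39 in Trp (30.6% to 49.8%), 51 to 67 in Val (54.1% to 71.5%) and 90 to 100 in POS (25.2% to 41.6%). The shares of all genes thus moved too. In Arg, 18 genes were called without Arg_4, 0 without NEG_1 or Arg_1 (all genes 1.01% and 1.18%) and 1 without NEG_3, NEG_4, NEG_5, NEG_6 or Arg_2 (1.76% to 2.58%). For Phe it was 24 without NEG_2 (34%), 5 without NEG_4 (4.41%), 3 without Phe_6 (5.26%), 1 without Phe_3 (2.25%) and 0 without NEG_1, NEG_5, Phe_1, Phe_2, Phe_4 or Phe_5 (0.0743% to 2.35%). It was 17 without NEG_2 for Thr and 19 without Trp_4 for Trp (all genes 21.5% and 30.6%).

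Drawn again with a filter at a mean FPKM of 1, the list kept 65 of its 100 genes, and by the score against NEG alone it kept 52. It kept 83 to 88 without 1 POS library, 82 with means in place of medians, 92 with total-read scaling, 94 with a pseudocount of 0.1 and 86 without the 4 libraries above. Depth limits the 8 genes shorter than 250 bp most, with 8 to 104 reads per library.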
